A study of Mus musculus with 6 samples.

Results

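The 10 genes described here mark the absorptive enterocyte of the small intestine, and were read in RNA from the mouse pylorus, the part of the stomach that meets the duodenum. They were taken by symbol (Fabp1, Fabp2, Apoa1, Apoa4, Apob, Vil1, Anpep, Cdh17, Cdhr2 and Cdhr5), and all 10 were found among the 39179 genes of the deposited table. Values were available for 3 Sox2 KO and 3 Sox2 WT libraries. Sox2 KO mice carried the tamoxifen-activated recombinase CreER at the Rosa26 locus together with Sox2 alleles flanked by loxP sites (Sox2 fl/fl); Sox2 WT mice had the same Sox2 fl/fl alleles and a wild-type Rosa26 locus. Both groups were of mixed C57BL/6 and 129 background, and mice of both groups were given tamoxifen when 8 weeks old. Stomachs were collected 2 weeks after that, although the samples carry an age label of 8 weeks. Rosa26 is active in nearly all cell types, so deletion was not limited to the epithelium. The muscle layer was removed after a cold incubation, and the RNA came from epithelium and mesenchyme together. Whether the 3 libraries of a group came from 3 different mice is not stated in the labels; p-values here therefore describe library-to-library spread, part of which may be technical.

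Enterocytes absorb nutrients across a brush border, a dense array of microvilli. Villin bundles the actin core of each microvillus, the protocadherins CDHR2 and CDHR5 tie the microvillus tips together, and peptidases such as ANPEP sit in the membrane. Fatty acid binding proteins carry lipid inside the cell, and apolipoproteins package it for export. In the stomach, a gain of these genes is a classical sign of intestinal metaplasia.

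Sox2, the targeted gene, was at 0.342, 0.21 and 0.42 RPKM in the Sox2 KO libraries, against 11.1, 9.03 and 10.9 RPKM in the Sox2 WT libraries. RPKM is reads scaled by gene length and by library depth, so levels can be set side by side between genes. Genes of the gastric epithelium were abundant in all 6 libraries, with Gkn1, Gkn2, Tff1 and Pgc at 11544 RPKM or more. Genes of the acid-producing gastric corpus were also present in all 6, with the proton pump gene Atp4a between 135 and 961 RPKM. Reads in genes numbered at least 25651745 to 28614867 in the Sox2 KO libraries and at least 19707990 to 23525358 in the Sox2 WT libraries. Y-linked genes were expressed in the 3 Sox2 KO libraries and in Sox2 WT replicate 1. Sox2 WT replicates 2 and 3 expressed Xist in their place, so the sex of the animals differed along with the genotype.

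Of the 10 genes, 9 were expressed well enough to be tested, and 0 passed the threshold between Sox2 KO and Sox2 WT. Cdhr2 came nearest: its level was 2.76 times as high in Sox2 KO as in Sox2 WT, with no overlap between the groups, but it did not pass the test across all genes. Fabp1 and Cdhr5 had higher means in Sox2 KO with overlapping values. The apolipoprotein genes varied up to 6.77-fold among libraries of the same genotype, and Vil1, Fabp2 and Anpep had similar means in both groups. Cdh17 was almost silent.

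The comparison was made with limma on log2(RPKM + 0.5) over 14045 genes with a mean of at least 0.5 RPKM, with Benjamini-Hochberg adjustment and a threshold of 0.05. A log2 fold change on this scale is Sox2 KO minus Sox2 WT, and for genes of low level the added 0.5 makes it smaller than the true change. The test called 4 genes (0.0285% of those tested), 2 higher and 2 lower in Sox2 KO (0.0142% each), and 0 of the 9 tested members; limma-voom on the recovered reads also called 0 of the 9. An unadjusted p under 0.05 was reached by 3 members (Cdhr2, Cdhr5 and Fabp1), each with the higher mean in Sox2 KO; over all tested genes 442 (3.15%) did, 296 (2.11%) of them with the higher mean in Sox2 KO. The groups did not overlap in 1 member, and over all tested genes in 7.08%, with 575 genes (4.09%) higher in Sox2 KO. A log2 fold change of 1 or more was reached by 2 members, Fabp1 and Cdhr2, and by 71 of all tested genes (0.506%). The median log2 fold change was 0.29 over the 9 members, which is the value of Apoa1, and 0.02 over all tested genes. In 7 of the 9 the fold change was positive, as in 7980 of the 14045. Apoa1 was among the 7, although its mean RPKM was lower in Sox2 KO than in Sox2 WT (144 against 155). In a bulk tissue, fewer cells of a type and less RNA per cell cannot be told apart.

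**Figure D1:**
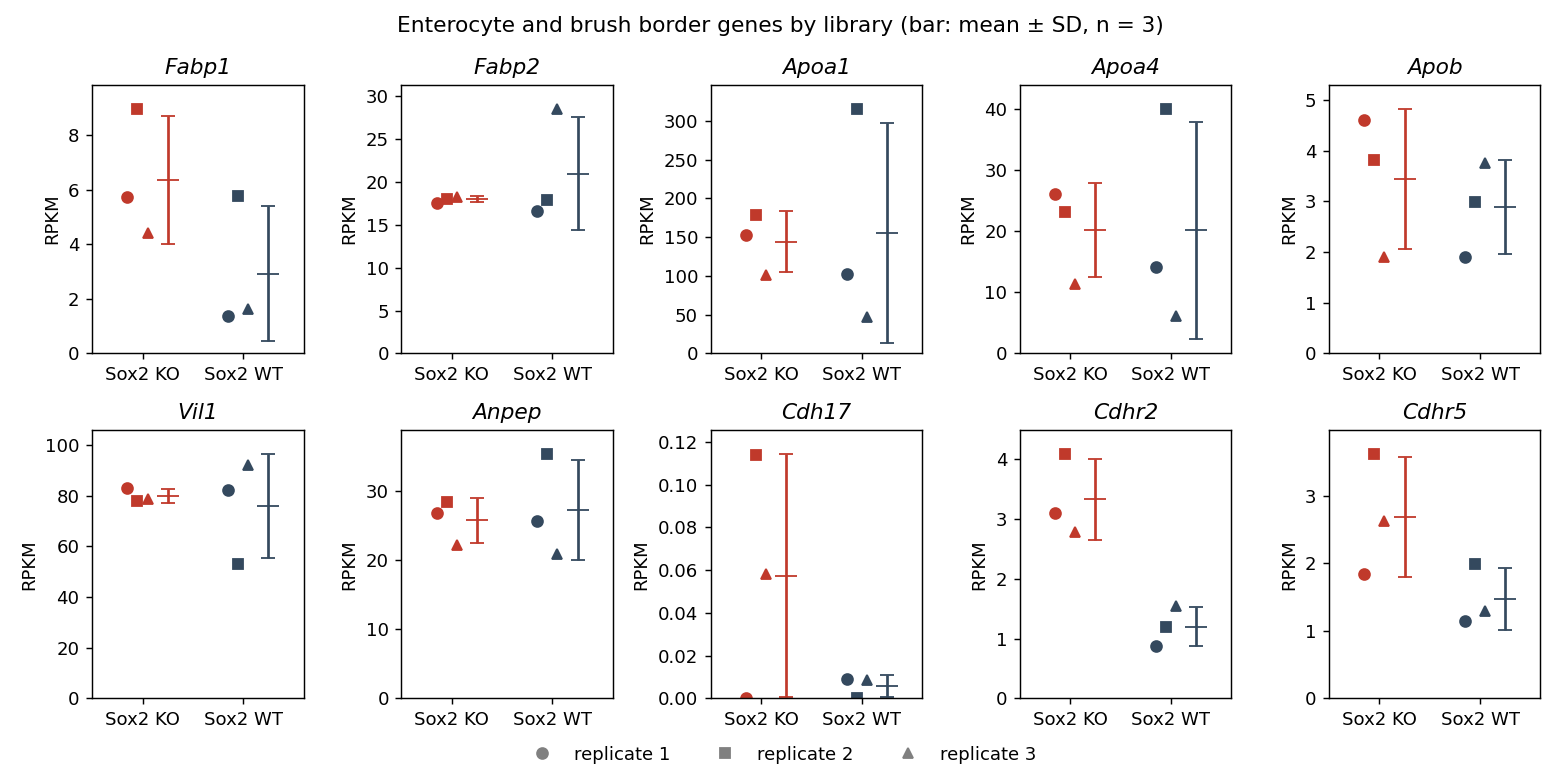
RPKM of each gene (vertical axes, each from 0) in the 3 Sox2 KO (red, left) and 3 Sox2 WT (dark, right) libraries; symbols give the replicate number, and the bars the mean ± SD (n = 3 each). Cdhr2 is the 1 gene tested in which every Sox2 KO library lies above every Sox2 WT library, and Apoa1 and Apoa4 are both highest in Sox2 WT replicate 2.

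The order of levels ran from Apoa1, at a mean of 150.0 RPKM over the 6 libraries, through Vil1 (77.8 RPKM), Anpep (26.5 RPKM), Apoa4 (20.1 RPKM), Fabp2 (19.5 RPKM), Fabp1 (4.65 RPKM), Apob (3.17 RPKM), Cdhr2 (2.27 RPKM) and Cdhr5 (2.08 RPKM) to Cdh17 (0.0316 RPKM). Apoa1 was above Vil1 in 5 of 6 libraries, and Anpep above Apoa4 in 5 of 6. Vil1 was above Anpep, Fabp2 above Fabp1, and Cdhr5 above Cdh17 in 6 of 6 libraries. Other neighbours changed places between libraries. Apoa4 was above Fabp2 in 3 of 6, and Fabp1 above Apob, Apob above Cdhr2 and Cdhr2 above Cdhr5 in 4 of 6 each. Cdhr2 exceeded Cdhr5 in 3 of 3 Sox2 KO libraries and in 1 of 3 Sox2 WT libraries. The place of Anpep is less sure, because the recovered reads match a counted length of 0.181 of its annotated exons, where the other 9 genes lay between 0.968 and 1.03.

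Cdhr2 and Cdhr5 encode the 2 protocadherins whose binding to each other links microvilli into a packed array. Cdhr2 (ENSMUSG00000034918, chromosome 13, 54701461 to 54736662, mm10) was at 3.1, 4.08 and 2.79 RPKM in Sox2 KO replicates 1 to 3, from 379, 486 and 388 reads. In Sox2 WT replicates 1 to 3 it was at 0.88, 1.19 and 1.54 RPKM, from 87, 137 and 161 reads. Every Sox2 KO library thus lay above every Sox2 WT library. The means were 3.33 ± 0.672 RPKM in Sox2 KO and 1.2 ± 0.33 RPKM in Sox2 WT (SD, n = 3 each). The log2 fold change was 1.17 (SE 0.192, 95% interval 0.72 to 1.62), with an unadjusted limma p of 4.1e-04 and an adjusted p of 0.229, which is not past the threshold. An exact two-sided permutation test of the 6 values gave p = 0.1, the smallest value that 3 against 3 allows. Over 18 alternatives the fold change stayed between 0.97 and 1.46 and the limma adjusted p between 0.177 and 0.657.

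Cdhr5 (ENSMUSG00000025497, chromosome 7, 141269083 to 141276786, mm10) was at 1.84, 3.61 and 2.62 RPKM in Sox2 KO, against 1.14, 1.99 and 1.29 RPKM in Sox2 WT. The groups overlapped through Sox2 KO replicate 1 and Sox2 WT replicate 2. Its log2 fold change was 0.68 (SE 0.245, 95% interval 0.10 to 1.25, limma adjusted p = 1.00, unadjusted p = 0.0266; exact two-sided permutation p = 0.2). Per library the ratio of Cdhr2 to Cdhr5 RPKM was 1.69, 1.13 and 1.07 in Sox2 KO and 0.771, 0.599 and 1.19 in Sox2 WT.

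Villin is the main actin-bundling protein of the microvillus and is made in the gastric antrum as well as in the intestine. Vil1 (ENSMUSG00000026175, chromosome 1, 74409376 to 74435559, mm10) was at 82.9, 78.0 and 78.6 RPKM in Sox2 KO, against 82.2, 52.9 and 92.2 RPKM in Sox2 WT. The Sox2 KO values lay inside the range of the Sox2 WT values, with the lowest in Sox2 WT replicate 2. Its log2 fold change was 0.11 (SE 0.204, 95% interval -0.36 to 0.59, limma adjusted p = 1.00), and -0.12 without Sox2 WT replicate 2. The ratio of Cdhr2 to Vil1 RPKM was 0.0375, 0.0523 and 0.0355 in Sox2 KO and 0.0107, 0.0225 and 0.0167 in Sox2 WT. The Sox2 KO ratios lay above the Sox2 WT ratios. Vil1 spanned 1.74-fold over the 6 libraries and Cdhr2 4.64-fold, so this ratio largely repeats the Cdhr2 values. The ratio of Cdhr2 to the proton pump gene Atp4b was 0.00417, 0.00501 and 0.00661 in Sox2 KO. In Sox2 WT that ratio was 0.00205, 0.00072 and 0.00737, so the groups overlapped. Vil1 overlaps Usp37 on the other strand, and without strand information their reads in the overlap cannot be told apart.

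Cdh17, encoding the intestinal cadherin LI-cadherin, was under the filter. Cdh17 was listed at 0 in Sox2 KO replicate 1 and had 15 and 9 reads, or 0.114 and 0.0584 RPKM, in Sox2 KO replicates 2 and 3. In Sox2 WT replicates 1 to 3 it had 1, 0 and 1 reads. A count of 0 allows up to 3 reads, or 0.0222 RPKM in Sox2 KO replicate 1 and 0.0236 RPKM in Sox2 WT replicate 2. The groups overlapped (exact two-sided permutation p = 0.4). Its annotated position is chromosome 4, 11758147 to 11817895 (mm10).

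The fatty acid binding proteins differed from each other. Fabp1 encodes the liver-type protein, which the proximal intestine also makes, and Fabp2 the intestinal type. Fabp1 (ENSMUSG00000054422, chromosome 6, 71199827 to 71205023, mm10) was at 5.75, 8.96 and 4.4 RPKM in Sox2 KO replicates 1 to 3, from 94, 143 and 82 reads. In Sox2 WT replicates 1 to 3 it was at 1.36, 5.78 and 1.64 RPKM, from 18, 89 and 23 reads. Sox2 WT replicate 2 reached the level of Sox2 KO, and the other Sox2 WT libraries lay below all of Sox2 KO. The means were 6.37 ± 2.34 RPKM in Sox2 KO and 2.93 ± 2.48 RPKM in Sox2 WT (SD, n = 3 each). The log2 fold change was 1.18 (SE 0.468, 95% interval 0.08 to 2.28, limma adjusted p = 1.00, unadjusted p = 0.0386; exact two-sided permutation p = 0.3). With sex as a covariate, which sets Sox2 KO against Sox2 WT replicate 1, the one male Sox2 WT library, it was 1.83 (limma adjusted p = 1.00).

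Fabp2 (ENSMUSG00000023057, chromosome 3, 122895072 to 122899506, mm10) was at 17.6, 18.0 and 18.3 RPKM in Sox2 KO, against 16.6, 17.9 and 28.5 RPKM in Sox2 WT. The Sox2 KO libraries were within 1.04-fold of each other, and Sox2 WT replicate 3 stood above the other 5 libraries. Its log2 fold change was -0.17 (SE 0.198, 95% interval -0.64 to 0.29, limma adjusted p = 1.00), and 0.12 with sex as a covariate. Fabp2 overlaps the antisense gene 4933405D12Rik.

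The promoter sequences of Cdhr2 and Fabp1 are given because these 2 genes had the largest fold changes among the members, and those of Apoa1 and Apoa4 because these neighbouring genes had similar profiles across libraries. Each window begins 250 bases before the RefSeq start and ends where the first annotated exon begins. The sequences are from RefSeq on GRCm38.p6, which is mm10, and capitals mark the matches to 6 motifs on either strand.
Cdhr2, chr13:54701213-54701460, plus strand: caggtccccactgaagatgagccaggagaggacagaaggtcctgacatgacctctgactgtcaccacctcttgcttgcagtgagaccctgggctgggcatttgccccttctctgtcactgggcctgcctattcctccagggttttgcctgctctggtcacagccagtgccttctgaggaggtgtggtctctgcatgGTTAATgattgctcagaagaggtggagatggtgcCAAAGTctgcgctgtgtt
Fabp1, chr6:71199629-71199826, plus strand: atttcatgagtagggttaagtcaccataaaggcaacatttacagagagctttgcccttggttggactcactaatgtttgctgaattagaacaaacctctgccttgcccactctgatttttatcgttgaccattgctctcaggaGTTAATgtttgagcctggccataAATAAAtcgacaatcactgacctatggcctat
Apoa1, chr9:46228380-46228579, plus strand: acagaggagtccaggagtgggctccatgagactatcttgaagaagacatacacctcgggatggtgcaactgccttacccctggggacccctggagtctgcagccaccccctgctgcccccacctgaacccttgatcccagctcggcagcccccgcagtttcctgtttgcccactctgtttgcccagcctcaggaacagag
Apoa4, chr9:46240594-46240695, plus strand: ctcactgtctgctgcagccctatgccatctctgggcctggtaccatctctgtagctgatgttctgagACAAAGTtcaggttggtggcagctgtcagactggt
The letters searched were TATAAA for the TATA box, AATAAA for CDX factors, GTTAAT for a partial site of HNF1, CAAAGT for HNF4, AGATAA for GATA factors and ACAAAG for SOX factors. They were chosen after the sequences had been seen. GTTAAT was found on the plus strand in Cdhr2 and in Fabp1, with its first base 52 and 55 bases before the end of the window. For comparison, 32851 RefSeq promoters were cut to the same length, counted from 250 bases before their own start. Of these, 6.4% held it on either strand in 248 bases and 5.26% in 198 bases. The cuts stop short of the RefSeq start, while the windows printed here end at an annotated exon. CAAAGT was found in Cdhr2, 18 bases before the end (12.5% of promoters), and in Apoa4 (5.75% in 102 bases), where it overlaps ACAAAG (7.18%). AATAAA was found in Fabp1 (15.3%). The Apoa1 window held 0 of the 6 motifs. A match to 6 letters is a description of the sequence, not a binding site.

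The apolipoproteins form another functional group. APOA1 is the main protein of high-density lipoprotein, APOA4 is secreted with chylomicrons, and APOB is the structural backbone of chylomicrons. Apoa1 (ENSMUSG00000032083, chromosome 9, 46228580 to 46230466, mm10) and Apoa4 (ENSMUSG00000032080, chromosome 9, 46240696 to 46243459, mm10) start 12.1 kb apart. Apoa1 was at 153, 179 and 101 RPKM in Sox2 KO, against 103, 315 and 46.6 RPKM in Sox2 WT. Apoa4 was at 26.0, 23.1 and 11.4 RPKM in Sox2 KO, against 14.1, 39.9 and 6.16 RPKM in Sox2 WT. In both genes the highest and the lowest library were Sox2 WT replicates 2 and 3, and the Sox2 KO libraries lay between them. The Apoa1 mean was 144 ± 39.3 RPKM in Sox2 KO and 155 ± 142 RPKM in Sox2 WT (SD, n = 3 each). For Apoa4 the means were 20.2 ± 7.73 RPKM in Sox2 KO and 20.1 ± 17.7 RPKM in Sox2 WT. By mean RPKM, Apoa1 was thus slightly lower in Sox2 KO, whereas its log2 fold change was positive. The log2 fold change was 0.29 for Apoa1 (SE 0.624, 95% interval -1.18 to 1.75) and 0.31 for Apoa4 (SE 0.623, 95% interval -1.15 to 1.77), both with a limma adjusted p of 1.00. One Sox2 WT library decided the sign. Without replicate 3 the values were -0.36 for Apoa1 and -0.32 for Apoa4, and without replicate 2 they were 1.01 and 0.98. Apoa4 overlaps 2 predicted genes on the other strand, Gm47528 and Gm10680.

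The level of Apoa1 followed that of the gastric proton pump genes from library to library. Likeness was measured as the root mean square difference of log2(RPKM + 0.5), each gene centred on its mean over the 6 libraries, among tested genes that are no members, with predicted genes left out. The 5 genes most like Apoa1 were Atp4b (0.120) and Atp4a (0.129), the subunits of the parietal cell proton pump, the hepcidin gene Hamp2 (0.147), Fabp3-ps1 (0.152) and Fabp3 (0.160), a fatty acid binding protein gene whose pseudogene may share its reads. Apoa4 itself was at 0.173 from Apoa1. Atp4b was at 745, 815 and 423 RPKM in Sox2 KO, against 430, 1656 and 209 RPKM in Sox2 WT. The ratio of Apoa1 to Atp4b RPKM was 0.205, 0.219 and 0.24 in Sox2 KO and 0.24, 0.191 and 0.223 in Sox2 WT. It spanned 1.26-fold, while Apoa1 alone spanned 6.77-fold and Atp4b 7.92-fold. Because Atp4b was taken as the gene most like Apoa1, a narrow ratio follows from that choice. The ratio of Apoa4 to Atp4b RPKM spanned 1.44-fold. Other corpus genes were less like Apoa1: Gif, of gastric chief cells in the mouse, was the 35th gene in the order of likeness (0.292) and Chia the 6050th (0.863). Pga5, the remaining corpus marker, had another order and was highest in Sox2 KO replicate 3. It was at 49.7, 43.4 and 116 RPKM in Sox2 KO, against 85.1, 57.0 and 52.1 RPKM in Sox2 WT. The summed level of the 5 corpus markers in the table was 2776 to 6903 RPKM in Sox2 KO and 853 to 6769 RPKM in Sox2 WT. In each Sox2 KO library most of that sum was Chia, at 1577 to 4857 RPKM in Sox2 KO and 221 to 3239 RPKM in Sox2 WT. The part of the corpus markers in the apolipoprotein levels was not tested.

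**Figure D2:**
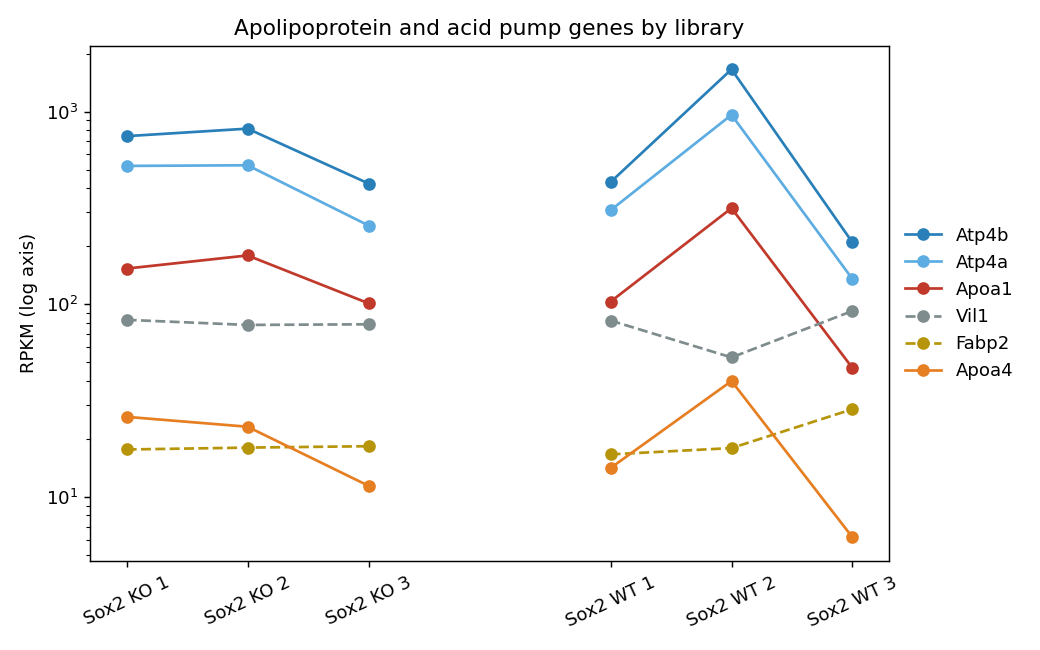
RPKM on a log axis for Apoa1, Apoa4, the proton pump genes Atp4a and Atp4b, and Vil1 and Fabp2 (dashed), in each Sox2 KO library (left) and Sox2 WT library (right). Apoa1 and the pump genes run nearly parallel and peak in Sox2 WT replicate 2, where Vil1 is lowest.

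Fabp1 did not keep such a ratio. Fabp1 over Atp4b was 0.00771, 0.011 and 0.0104 in Sox2 KO and 0.00316, 0.00349 and 0.00785 in Sox2 WT, a span of 3.48-fold. Sox2 WT replicate 2, the Sox2 WT library with the highest Fabp1 level, was also the library with the highest Atp4b level.

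Apob (ENSMUSG00000020609, chromosome 12, 7977648 to 8016835, mm10) had another order. It was at 4.6, 3.82 and 1.91 RPKM in Sox2 KO, against 1.91, 2.99 and 3.76 RPKM in Sox2 WT, and the groups overlapped over nearly their whole range. Its fold change on the log2 scale was 0.19 (SE 0.316, 95% interval -0.55 to 0.93, limma adjusted p = 1.00), and it turned to -0.03 without Sox2 KO replicate 1 and to -0.04 without Sox2 WT replicate 1. Mttp, the transfer protein that loads lipid onto APOB, was at 0.583 ± 0.0681 RPKM in Sox2 KO and 0.595 ± 0.14 RPKM in Sox2 WT (SD, n = 3 each). Apoc3, which lies in the same cluster as Apoa1 and Apoa4, had at most 9 reads in any Sox2 KO library and 10 in any Sox2 WT library. Apoa5, the fourth gene of the cluster, was listed at 0 in all 6.

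Anpep encodes aminopeptidase N, a brush border peptidase that is also made by fibroblasts and myeloid cells. Anpep (ENSMUSG00000039062, chromosome 7, 79821803 to 79861059, mm10) was at 26.7, 28.4 and 22.1 RPKM in Sox2 KO, against 25.6, 35.2 and 20.9 RPKM in Sox2 WT. As with Apoa1, Sox2 WT replicates 2 and 3 were the highest and the lowest library, but the span was only 1.68-fold. Limma gave a log2 fold change of -0.06 (SE 0.198, 95% interval -0.52 to 0.41, limma adjusted p = 1.00), and it was 0.14 without Sox2 WT replicate 2. The Anpep locus overlaps the predicted gene Gm44974 on the same strand.

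**Figure D3:**
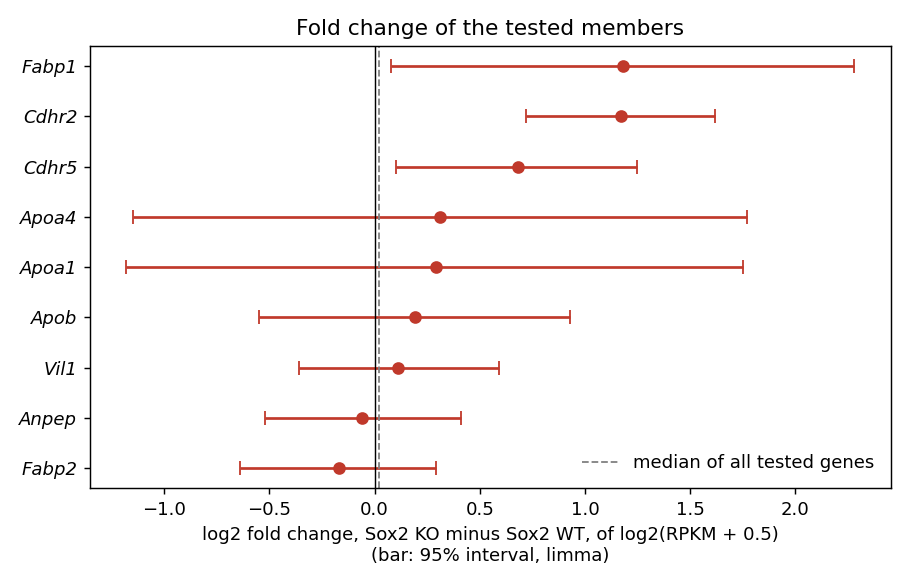
log2 fold change of the 9 tested members, Sox2 KO minus Sox2 WT, of log2(RPKM + 0.5), with 95% intervals from limma; the dashed line is the median of all tested genes (0.02). The intervals of Fabp1, Cdhr2 and Cdhr5 lie above 0 before adjustment for 14045 genes, and those of Apoa1 and Apoa4 are the widest.

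Other genes of the enterocyte were read as 5 lists, of which 0 members passed in either direction, against 0.0285% of all tested genes. Of 18 genes of lipid absorption 14 were tested, with a median log2 fold change of 0.03. The most abundant were high in both groups. The retinol carrier gene Rbp2 was at 229 ± 42.8 RPKM in Sox2 KO and 240 ± 20.4 RPKM in Sox2 WT, and the triglyceride synthesis gene Dgat2 at 108 ± 19.5 RPKM in Sox2 KO and 108 ± 20.7 RPKM in Sox2 WT (SD, n = 3 each). Acsl5, which activates fatty acids, was at 107 ± 9.89 RPKM in Sox2 KO and 110 ± 11.5 RPKM in Sox2 WT. Sar1b, of the chylomicron export route, was at 49.8 ± 2.47 RPKM in Sox2 KO and 47.8 ± 6.72 RPKM in Sox2 WT.

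The microvillus scaffold was also abundant. Of 21 genes 17 were tested, Vil1, Cdhr2 and Cdhr5 among them, with a median log2 fold change of 0.10. The motor Myo1a was at 106 ± 14.3 RPKM in Sox2 KO and 99.3 ± 17.9 RPKM in Sox2 WT, and the bundling protein gene Pls1 at 115 ± 15.1 RPKM in Sox2 KO and 115 ± 25 RPKM in Sox2 WT (SD, n = 3 each). Ezr, encoding the membrane linker ezrin, was at 327 ± 73 RPKM in Sox2 KO and 367 ± 101 RPKM in Sox2 WT. Partners of the protocadherins were uneven in level: Anks4b was at 12.1 to 25.4 RPKM over the 6 libraries, Myo7b at 0.13 to 0.78 RPKM and Ush1c at 0.206 to 0.3 RPKM.

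Digestive enzymes were mostly near 0. Of 17 brush border hydrolases 6 were tested, 2 were listed at 0 in all libraries (Sis and Mep1a), and the lactase gene Lct was at most 0.0168 RPKM. Alpi, the intestinal alkaline phosphatase gene, was at 2.25, 6.76 and 5.3 RPKM in Sox2 KO, against 8.73, 6.27 and 17.6 RPKM in Sox2 WT. It had the lower mean in Sox2 KO, with an overlap between Sox2 KO replicate 2 and Sox2 WT replicate 2 (log2 fold change -1.10, SE 0.449, limma adjusted p = 1.00, unadjusted p = 0.0433). Dpp4 was at 8.2 ± 1.71 RPKM in Sox2 KO and 7.63 ± 2.37 RPKM in Sox2 WT (SD, n = 3 each). The other 2 of highest level were Ace, at 6.48 ± 0.93 RPKM in Sox2 KO and 5.9 ± 1.05 RPKM in Sox2 WT, and Enpp3, at 1.73 ± 0.182 RPKM in Sox2 KO and 1.63 ± 0.124 RPKM in Sox2 WT.

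Of 13 brush border transporters 6 were tested, with a median log2 fold change of -0.17. The glucose transporter Slc5a1 was at 1.88, 2.2 and 2.05 RPKM in Sox2 KO, against 1.64, 1.53 and 1.26 RPKM in Sox2 WT. Its groups did not overlap, at a log2 fold change of 0.37 (SE 0.132, limma adjusted p = 1.00, unadjusted p = 0.0258). Slc9a3, a sodium-proton exchanger, was at 16.5 ± 2.9 RPKM in Sox2 KO and 21.1 ± 6.63 RPKM in Sox2 WT (SD, n = 3 each). The fructose transporter Slc2a5 was at 1.8 ± 0.296 RPKM in Sox2 KO and 2.28 ± 0.372 RPKM in Sox2 WT, and the anion exchanger Slc26a6 at 2.45 ± 0.67 RPKM in Sox2 KO and 1.9 ± 0.936 RPKM in Sox2 WT.

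Of 18 transcription factors of the intestine 14 were tested, with a median log2 fold change of -0.07. Hnf4a, a regulator of enterocyte genes, was at 56.7 ± 2.76 RPKM in Sox2 KO and 59.7 ± 13.5 RPKM in Sox2 WT (SD, n = 3 each). Gata4 was at 55.3 ± 0.663 RPKM in Sox2 KO and 61.5 ± 1.81 RPKM in Sox2 WT, without overlap between the groups. Gata6 was at 34.6 ± 1.69 RPKM in Sox2 KO and 37.1 ± 2.81 RPKM in Sox2 WT, and Klf5 at 43.5 ± 8.48 RPKM in Sox2 KO and 54.5 ± 19.2 RPKM in Sox2 WT. Nr1h4, the bile acid receptor gene, had a log2 fold change of 0.45 without overlap (SE 0.138, limma adjusted p = 1.00, unadjusted p = 0.0132). In all, the groups did not overlap in 3 of the 14, 2 higher (Nr1h4 and Nr1i2) and 1 lower (Gata4) in Sox2 KO, against 7.08% of all tested genes. The 2 homeobox genes Cdx2 and Isx were under the filter. Cdx2, which specifies intestine, was at 0.134, 0.792 and 0.653 RPKM in Sox2 KO, against 0.238, 0.0158 and 0.278 RPKM in Sox2 WT, so the groups overlapped. Isx, a homeobox factor of enterocytes, had 23, 28 and 16 reads in Sox2 KO and 3, 0 and 3 reads in Sox2 WT, or 0.302, 0.376 and 0.184 RPKM against 0.0485, 0 and 0.0459 RPKM. Nr1h4, Nr1i2, Cdx2 and Isx were chosen after their values were seen, as were Mttp, Apoc3, Apoa5, Lct, Anks4b, Myo7b and Ush1c.

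**Figure D4:**
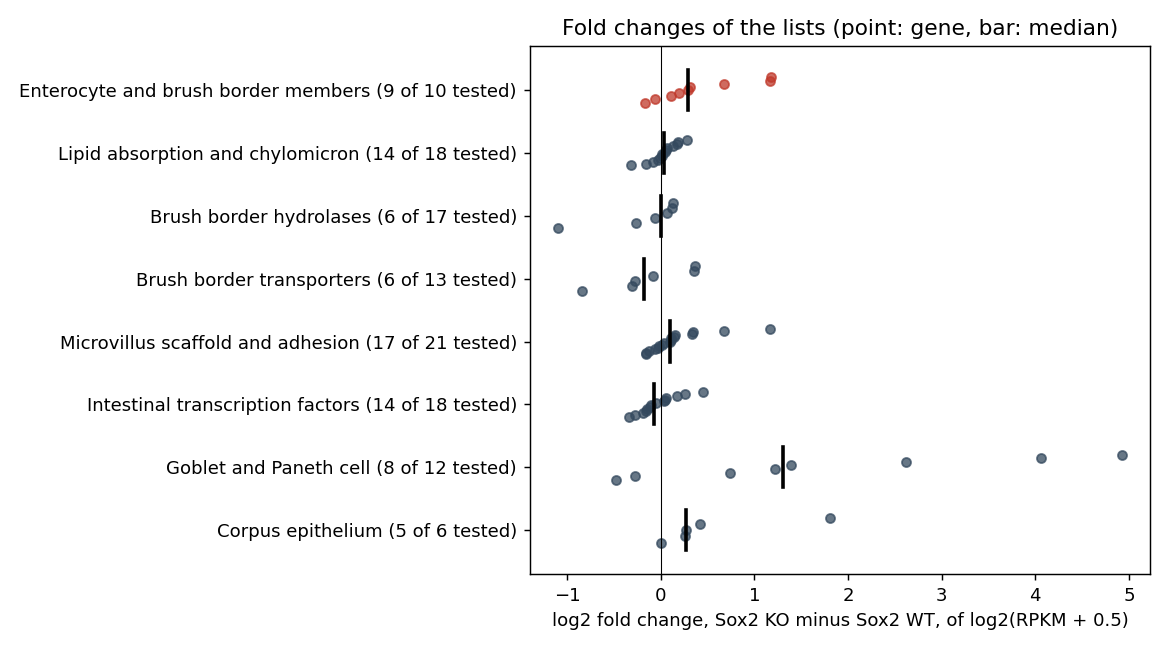
log2 fold changes of the tested genes of each list, Sox2 KO minus Sox2 WT, of log2(RPKM + 0.5); points are genes and bars are list medians. The median of the members is 0.29, the value of Apoa1, and the medians of the 5 other enterocyte lists run from -0.17 to 0.10. The goblet and Paneth cell list has the highest median of those drawn (1.30).

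Markers of secretory cells of the intestine differed among themselves. The summed level of the 12 goblet and Paneth cell markers was 3741 to 5287 RPKM in Sox2 KO and 1111 to 2843 RPKM in Sox2 WT. Most of that sum came from Clca3 and Agr2 together. Clca3 was at 1729 to 3241 RPKM in Sox2 KO and 131 to 1010 RPKM in Sox2 WT, while Agr2 had the lower mean in Sox2 KO. Of 8 tested, 6 had a positive and 2 (Agr2 and Lyz1) a negative log2 fold change. The 6 each had an unadjusted limma p under 0.05, as had 3.15% of all tested genes (2.11% with the higher mean in Sox2 KO), and 0 of the 8 passed. The goblet lectin gene Zg16 had a log2 fold change of 4.06 (SE 0.547, limma adjusted p = 0.127). It was 4.67 (adjusted p = 0.0353) without Sox2 WT replicate 1, 3.67 (adjusted p = 0.282) without Sox2 WT replicate 2 and 2.84 (adjusted p = 0.479) with sex as a covariate, all by limma. Clca3 had a log2 fold change of 2.62 (SE 0.69, limma adjusted p = 0.838), from 1.80 without Sox2 WT replicate 2 to 3.27 without Sox2 WT replicate 3. Spink4 had one of 1.22 (SE 0.246, limma adjusted p = 0.420), and 0.82 with sex as a covariate. Agr2 was at 852 ± 249 RPKM in Sox2 KO and 1201 ± 393 RPKM in Sox2 WT (SD, n = 3 each). Itln1, an intestinal lectin gene chosen after its values were seen, was at 167 ± 105 RPKM in Sox2 KO and 4.35 ± 2.02 RPKM in Sox2 WT (log2 fold change 4.93, limma adjusted p = 0.0577). It was 5.56 (limma adjusted p = 0.00513) without Sox2 KO replicate 1, and 5.31 (adjusted p = 0.445) with sex as a covariate. The defining goblet gene Muc2 was at most 0.887 RPKM in Sox2 KO and 0.389 RPKM in Sox2 WT, and the Paneth cell genes Defa24 and Ang4 were listed at 0. Their part in the levels of Cdhr2 and Fabp1 was not tested.

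Markers of neighbouring organs differed in level. Of 6 hepatocyte markers 2 passed the filter, Ttr at 76.2 ± 17 RPKM in Sox2 KO and 60.9 ± 19.3 RPKM in Sox2 WT and Alb at 3.76 ± 1.04 RPKM in Sox2 KO and 3.52 ± 0.938 RPKM in Sox2 WT (SD, n = 3 each). Fgb was listed at 0 in all 6, and Apoh and Ahsg were at most 0.633 RPKM. Of 6 exocrine pancreas markers 2 passed, Cel and Ctrb1, and Cpa1 and Amy2a5 were listed at 0. Cel was highest in Sox2 WT replicate 2, at 13.3 RPKM, as Apoa1 was, and Pnlip and Cela3b were at most 0.1 RPKM. Of 8 squamous forestomach markers 1 passed, Krt13, at 0.551 to 2.03 RPKM over the 6 libraries; Krt5, Krt4 and Lor were at most 0.249 RPKM. Smooth muscle and fibroblast markers had a median log2 fold change of 0.01, with Acta2 at 205 ± 45.2 RPKM in Sox2 KO and 204 ± 34.9 RPKM in Sox2 WT (SD, n = 3 each). Tagln spanned 132 to 224 RPKM, Col3a1 129 to 175 RPKM and Dpt 94.2 to 117 RPKM over the 6 libraries. The macrophage and endothelial markers had a median of 0.04, with Lyz2 at 38.4 to 87.7 RPKM, Pecam1 at 7.89 to 12.5 RPKM, Csf1r at 4.43 to 8.16 RPKM and Cd68 at 3.5 to 9.36 RPKM over the 6 libraries.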

How the data were processed

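RNA-seq values were available for 3 Sox2 KO and 3 Sox2 WT libraries of mouse pylorus. The authors deposited RPKM values for 39179 Ensembl identifiers. CASAVA 1.7, STAR and the build mm10 are named, without roles, per the submitters' processing notes; for the counter, annotation, filters and strandedness the entry is: not given in the sources used here. Gene positions are from GENCODE mouse release 21 on GRCm38 (mm10), for the 37607 identifiers that matched.

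Of rows sharing a symbol the one with the highest mean was kept, which left out 253. Values were tested with limma 3.58.1 in R 4.3.3, as described with the results, with a variance trend; the step was tested on simulated data. Whole reads were recovered as the common unit of each gene's 6 values: 99.98% of 23538 genes above 0 came out whole within 1e-05 reads. The very abundant Gkn1, Gkn2, Tff1 and Pgc did not. They are missing from the read totals and from the voom fit, which covered 14041 genes. A divisor common to all 6 libraries would be missed, so reads are lower bounds, and reads and floors cover counting error only. Members and lists were chosen with earlier results of these data known. From each list, genes past the threshold, or else the 4 of highest mean RPKM, were named. Sex was read from Xist and Y-linked genes. Alternatives tried were pseudocounts of 0.1 and 1, the filter removed or raised to 1 RPKM, median-of-ratios rescaling, quantile normalization, no variance trend, a robust variance estimate, the replicate number as a block, voom on recovered reads, sex as a covariate, male libraries alone, each library left out, and an adjusted p under 0.1.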

Additional observations from a re-analysis of the deposited data

How the results depend on the processing

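The count of 0 members past the threshold held under every alternative run with limma, including an adjusted p under 0.1. The count over all genes, 4, became 1 with a replicate block, 7 with voom on recovered reads, 1 with sex as a covariate, 0 in male libraries alone (583 with an unadjusted p under 0.05), 8 at an adjusted p under 0.1, and 1 to 8 with 1 library left out. Over all tested genes, same-numbered libraries did not deviate together (correlations of 0.009, 0.097 and -0.074 for replicates 1 to 3). With 3 libraries per group, these correlations cannot decide whether the numbers pair the samples. Sox2 was among the 4 genes called in the main comparison, with a log2 fold change of -3.72 (SE 0.147, limma adjusted p = 2.9e-04). In male libraries alone, with 1 Sox2 WT library assumed to vary like the others, its log2 fold change was -3.82. Groups did not overlap in 1 of 9 members (7.08% of all tested genes), in 5 in male libraries alone (48.5%), and in 1 to 3 with 1 library left out (10.3% to 20.4%); fewer libraries overlap less often by construction. The 3, without Sox2 WT replicate 2, were Cdhr2, Fabp1 and Cdhr5. The median over members, 0.29, ran from 0.09 without Sox2 KO replicate 1 to 0.86 without Sox2 WT replicate 2. With sex as a covariate and in male libraries alone, Fabp2 turned to 0.12 and Vil1 to -0.04. Leaving out 1 library gave ranges that crossed 0 for Fabp2 (-0.32 to 0.06), Vil1 (-0.12 to 0.27), Anpep (-0.23 to 0.14), Apob (-0.04 to 0.51), Apoa1 (-0.36 to 1.01), Apoa4 (-0.32 to 0.98), Atp4a (-0.40 to 1.02) and Atp4b (-0.41 to 1.08). Among the other genes given a fold change, Zg16 passed without Sox2 WT replicate 1 (4.67, limma adjusted p = 0.0353) and Itln1 without Sox2 KO replicate 1 (5.56, limma adjusted p = 0.00513). The cause of these shifts was not tested. Depth limits Cdh17, Isx and Apoc3, which had 28 reads or fewer in each library.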
